A study of Mus musculus with 30 samples.

Results

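The HoxD cluster genes of paralogue groups 1 to 12 are the 8 genes Hoxd1, Hoxd3, Hoxd4, Hoxd8, Hoxd9, Hoxd10, Hoxd11 and Hoxd12. They were picked by name, by a rule that uses no measured value, although earlier results of these data were known at the time. All 8 have a row among the 54134 of the count table. Hoxd3 never reached the level needed for testing (above 10 counts and above 2 CPM, which are counts scaled for library size, in 2 or more libraries of a group), so 7 of the 8 are among the 12149 genes tested. The filter keeps genes that are high in at least 1 group, and Hoxd3 is therefore given by its counts.

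RNA was measured in 30 libraries of mouse embryonic stem cells (ESCs) of the Bruce4 line and their derivatives, as they were directed towards neuromesodermal progenitors (NMPs), the axial progenitors that give rise to spinal cord and paraxial mesoderm. The cells were wildtype or Nr6a1-/-, the latter from 1 clone with CRISPR/Cas9 deletions inside exon 4 of both alleles of Nr6a1, an orphan nuclear receptor. Each genotype had 3 libraries at each of 5 stages. At d2 the cells had received FGF2 for 48 h. At d2.5 and d3 they had also received CHIR, which activates the Wnt pathway, for 12 h and 24 h. At d4 they had spent another 24 h in FGF2 and CHIR, and at d4G these 24 h included Gdf11. FGF2 was thus common to all groups and CHIR to all from d2.5 on. Both d4 and d4G cells came from d3 cells. Since 1 clone carried the deletions, the effect of genotype and that of the line cannot be told apart.

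Hox genes encode homeodomain transcription factors that assign position along the head to tail axis. Within a cluster they are switched on in order, from the low-numbered genes that pattern the hindbrain and neck to the high-numbered genes that pattern the lumbar, sacral and tail regions. Gdf11, a ligand of the TGFβ family that signals through Smad proteins, is known for triggering the change from trunk to tail in axial progenitors.

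Library totals ran from 1570714 to 3688197 counts, with a median of 2366002, and a library with a count of 0 could still hold a gene at 0.813 to 1.91 CPM. NMP markers (T, Sox2, Nkx1-2, Cdx1, Cdx2, Cdx4, Fgf8, Fgf17 and Wnt3a) summed to 130 to 153 CPM in the wildtype libraries at d2, to 1087 to 1175 CPM at d3 and to 676 to 754 CPM at d4. Of the wildtype libraries at d4, replicate 2 stood apart: its 6 epiblast markers summed to 724.7 CPM, against 93.3 and 79.9 CPM in the others. Of the Nr6a1-/- libraries at d4, replicate 1 differed from replicates 2 and 3 by a chi-square of 6.38 and 7.59 per gene, and those 2 from each other by 2.82. Several values at d4 are also given without 1 of these libraries. The 3′-end counts of Nr6a1 did not check the genotype labels, because exon 4 lies away from the sequenced end. At d4 they were at 97.6 ± 1.59 CPM without and at 223 ± 33.0 CPM with the deletions (mean ± SD, n = 3).

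The 8 genes lie on the plus strand of chromosome 2 and span 90130 bases of GRCm38. From the posterior end they begin with Hoxd12 (74675013 to 74677705), Hoxd11 (74679557 to 74687016), Hoxd10 (74691924 to 74695105) and Hoxd9 (74697727 to 74700208). Hoxd8 (74704615 to 74707933), Hoxd3 (74711927 to 74748442), Hoxd4 (74711929 to 74729160) and Hoxd1 (74762980 to 74765142) follow. The annotated spans of Hoxd3 and Hoxd4 overlap. Of the last 500 exonic bases, from which these libraries are read, Hoxd11 shares 53.2% with the non-coding gene Gm28309, and Hoxd3 and Hoxd4 share 29.4% and 4.4% with the predicted gene Gm28230, all on the same strand. Counts of these 3 genes are uncertain to that extent. The overlapping genes themselves held few counts, 0 for Gm28309 and 4 for Gm28230 over all 30 libraries.

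Promoters are shown for the 5 genes that rose with Gdf11 in both genotypes. These are the bases that precede the transcript start in RefSeq (GRCm38.p6), ending before the first annotated transcript. Capitals mark matches, on either strand, to TTTATG (Cdx), TGATTNAT (Pbx-Hox) or CAGAC (Smad).
Hoxd8, chr2:74704365-74704614, plus strand: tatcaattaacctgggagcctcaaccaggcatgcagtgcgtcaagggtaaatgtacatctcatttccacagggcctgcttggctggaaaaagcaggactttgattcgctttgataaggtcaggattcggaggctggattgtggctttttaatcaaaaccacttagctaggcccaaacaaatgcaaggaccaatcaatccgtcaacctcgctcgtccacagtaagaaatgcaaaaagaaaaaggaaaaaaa
Hoxd9, chr2:74697513-74697726, plus strand: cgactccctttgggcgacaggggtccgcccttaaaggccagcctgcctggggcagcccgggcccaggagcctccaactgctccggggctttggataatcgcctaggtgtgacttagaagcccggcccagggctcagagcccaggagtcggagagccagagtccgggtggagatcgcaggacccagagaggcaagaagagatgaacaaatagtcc
Hoxd10, chr2:74691641-74691890, plus strand: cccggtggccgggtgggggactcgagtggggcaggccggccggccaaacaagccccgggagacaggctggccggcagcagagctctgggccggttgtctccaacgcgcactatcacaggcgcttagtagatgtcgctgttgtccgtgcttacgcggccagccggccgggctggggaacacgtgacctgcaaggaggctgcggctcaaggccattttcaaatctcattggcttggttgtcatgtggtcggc
Hoxd11, upstream start, chr2:74679308-74679556, plus strand: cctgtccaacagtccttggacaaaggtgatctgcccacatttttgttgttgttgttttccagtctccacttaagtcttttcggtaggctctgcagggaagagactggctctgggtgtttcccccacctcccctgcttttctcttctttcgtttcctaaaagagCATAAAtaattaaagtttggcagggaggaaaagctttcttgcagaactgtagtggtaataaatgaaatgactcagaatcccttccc
Hoxd11, downstream start, chr2:74682073-74682322, plus strand: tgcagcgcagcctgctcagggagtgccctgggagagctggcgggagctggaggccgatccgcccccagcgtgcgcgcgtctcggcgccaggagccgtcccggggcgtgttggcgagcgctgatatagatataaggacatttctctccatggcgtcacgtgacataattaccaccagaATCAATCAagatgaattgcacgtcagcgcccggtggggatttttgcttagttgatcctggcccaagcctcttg
Hoxd12, chr2:74674763-74675012, plus strand: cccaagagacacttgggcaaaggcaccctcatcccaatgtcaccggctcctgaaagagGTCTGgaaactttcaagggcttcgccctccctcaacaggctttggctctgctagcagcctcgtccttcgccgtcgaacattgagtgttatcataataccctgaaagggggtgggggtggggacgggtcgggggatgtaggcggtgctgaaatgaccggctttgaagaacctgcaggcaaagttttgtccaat
Each motif was searched from 250 bases before to 50 bases after each RefSeq start. TTTATG was found before Hoxd3, on both sides of the start of Hoxd4 and before the upstream start of Hoxd11, and it occurs in 11.9% of all 32817 promoters. TGATTNAT (3.22% of all) was found 73 to 66 bases before the downstream start of Hoxd11. CAGAC is in 49.6% of all promoters and was found before Hoxd12, 192 to 188 bases from the start, and at 2 places just after the upstream start of Hoxd11. AGGTCA as a direct repeat without a spacer (0.00609% of all) and TCAAGGTCA (0.424%), motifs bound by Nr6a1, had no match in these windows for any of the 8 genes, nor had GTCTAGAC (0.213%), the palindromic Smad motif. These matches describe the letters of the windows and nothing more.

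**Figure D1:**
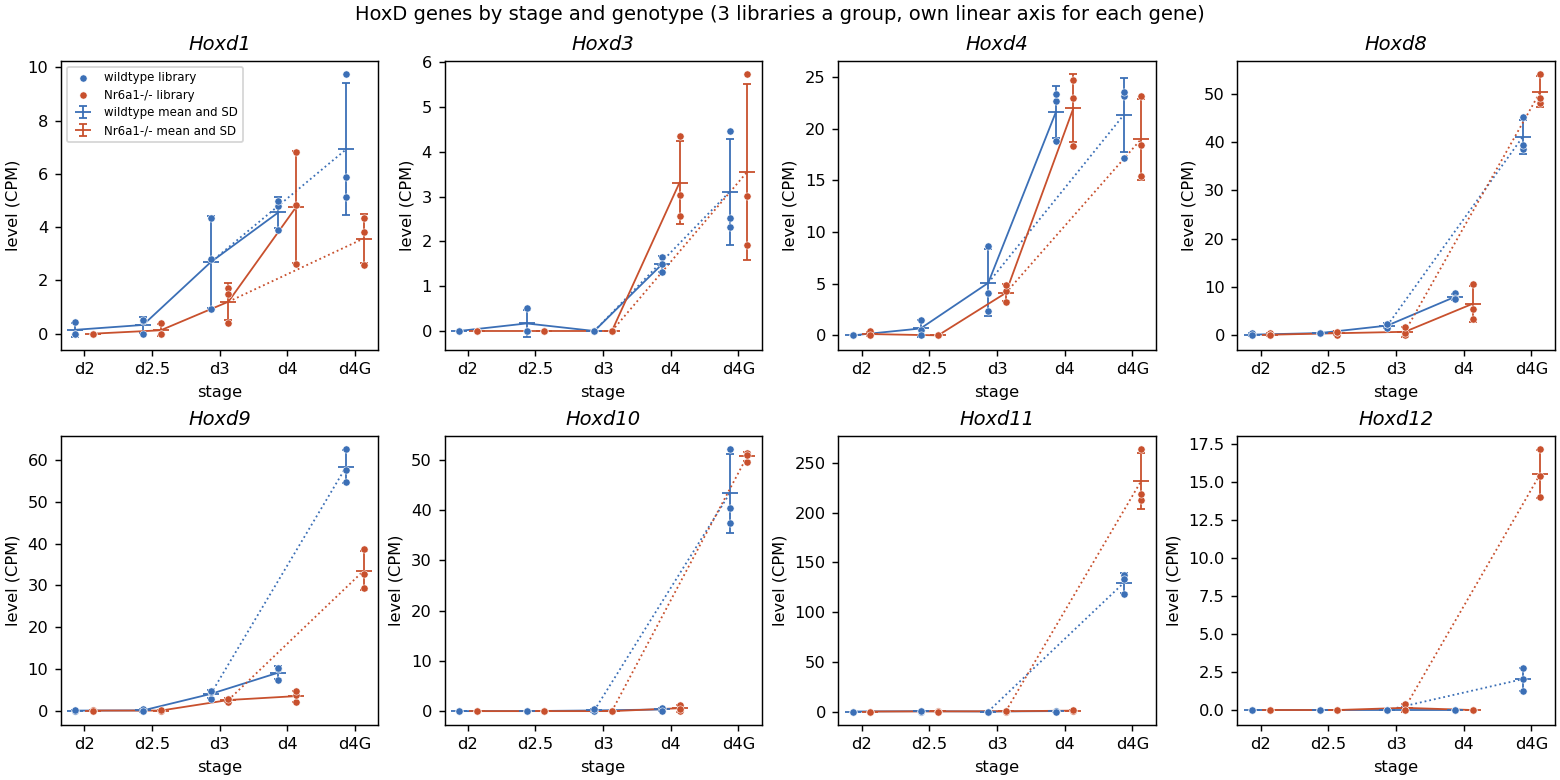
Level of each HoxD gene in CPM (linear axis, own scale for each gene) by stage, for wildtype (blue) and Nr6a1-/- (orange) libraries; points are libraries, bars are mean and SD (n = 3). Solid lines join d2 to d4, and dotted lines join d3 to d4G. Hoxd10, Hoxd11 and Hoxd12 stay near 0 CPM up to d4 and rise at d4G.

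Onset followed the cluster in part. Hoxd10, Hoxd11 and Hoxd12 reached a mean of 2 CPM at d4G alone in both genotypes. So did the anterior gene Hoxd3 in wildtype cells, which was at 1.49 CPM at d4. Since d4 and d4G are parallel arms from d3, d4G is no later step than d4. Before and 12 h after Wnt activation no gene reached a mean of 2 CPM, and the highest single value was 3 counts of Hoxd4 (1.52 CPM) in wildtype d2.5 replicate 2. At d3, 4 genes were at 2 CPM or more in wildtype cells (Hoxd1, Hoxd4, Hoxd8 and Hoxd9) and 2 in Nr6a1-/- cells (Hoxd4 and Hoxd9). The wildtype count fell to 3 whichever of its libraries was left out, and the Nr6a1-/- count stayed at 2. Wildtype Hoxd8 was at 2.05 CPM (1.45 to 2.40) and Hoxd1 at 2.69 CPM (0.921 to 4.34). At d4 the same 4 genes were at 2 CPM or more in wildtype cells. In Nr6a1-/- cells 5 genes were, where Hoxd1, Hoxd3 and Hoxd8 had been added. All 8 genes passed 2 CPM at d4G in both genotypes. In wildtype cells Hoxd12 was at 2.03 CPM there, and 7 or 8 genes passed with 1 library left out. Hoxd9 was at 2 CPM or more in d3 cells of both genotypes, when the more anterior Hoxd3 had no count, and in Nr6a1-/- cells it came before Hoxd1 and Hoxd8. At a threshold of 5 CPM the counts at d3 were 1 gene in wildtype (Hoxd4) and 0 in Nr6a1-/- cells. In wildtype cells Hoxd8 and Hoxd9 reached it at d4 without Gdf11, and Hoxd1 at d4G alone. The summed level of the 8 genes was 14.0 ± 2.91 and 9.12 ± 2.56 CPM at d3 in wildtype and Nr6a1-/- cells. It was 45.6 ± 1.03 and 41.7 ± 3.52 CPM at d4 and 305 ± 11.02 and 408 ± 25.1 CPM at d4G (mean ± SD, n = 3). At d4 it was 46.2 and 43.7 CPM without wildtype replicate 2 and Nr6a1-/- replicate 1.

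Between d2 and d2.5, edgeR's quasi-likelihood test called none of the 7 genes in either genotype at a false discovery rate (FDR) of 0.05, where it called 25.4% of all genes in wildtype and 24.1% in Nr6a1-/- cells. At an unadjusted p of 0.05 it gave 1 gene in wildtype (Hoxd4) and 0 in Nr6a1-/- cells, and DESeq2 called 0 in both. The first called rises came between d2.5 and d3. In wildtype cells 3 of 7 genes rose, where 5.91% of all genes did, and in Nr6a1-/- cells 2 of 7, where 7.43% did.

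Hoxd4, which acts in the hindbrain and neck, had 0 to 3 counts per library at d2.5. At d3 it had 18, 9 and 6 counts in wildtype (8.69, 4.14 and 2.40 CPM) and 8, 10 and 13 counts in Nr6a1-/- libraries. The ranges at d3 lay above those at d2.5 in both genotypes. Its log2 fold change from d2.5 was 2.80 (SE 0.65, FDR 0.0036) in wildtype cells. In Nr6a1-/- cells, where all 3 libraries at d2.5 held 0 counts, the level at d3 was at least 11.4-fold higher, taking 3 counts over the group as the limit. Hoxd9, a gene of the lower thoracic and lumbar regions, had 6, 10 and 12 counts in wildtype (2.90, 4.60 and 4.80 CPM) and 7, 5 and 8 counts in Nr6a1-/- libraries (2.81, 2.14 and 2.98 CPM). All 6 libraries were above those at d2.5, and the log2 fold changes were 4.27 (SE 0.75, FDR 9.9e-05) and 3.97 (SE 0.78, FDR 0.00027). Hoxd1, the anterior end of the cluster, had 9, 2 and 7 counts in wildtype and 1, 4 and 4 in Nr6a1-/- libraries at d3. Its rise in wildtype cells (log2 2.83, SE 0.85, FDR 0.026) was not called by DESeq2 (FDR 0.075) and was lost when any of 4 libraries was left out. In Nr6a1-/- cells the log2 fold change was 2.85 with FDR 0.066. Hoxd8 was not called in either genotype at this step.

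Between d3 and d4, without Gdf11, Hoxd4 and Hoxd8 rose in both genotypes, and Hoxd10, Hoxd11 and Hoxd12 held at most 3 counts in a library at d4. In wildtype cells 3 of 7 genes rose (9.77% of all genes did) and in Nr6a1-/- cells also 3 (13.6% of all). Hoxd4 had 22.7, 18.8 and 23.4 CPM in the wildtype libraries and 24.7, 18.4 and 23.0 CPM in the Nr6a1-/- libraries at d4. All 6 lay above d3, with log2 fold changes of 2.12 (SE 0.30) and 2.41 (SE 0.31). Hoxd8, which acts in the trunk, had 8.72, 7.74 and 7.50 CPM in wildtype and 3.47, 10.6 and 5.54 CPM in Nr6a1-/- libraries. It rose by 1.91 (SE 0.42) and 2.93 (SE 0.54) on the log2 scale. Hoxd9 rose in wildtype cells (log2 1.16, SE 0.30, FDR 0.0041), and in Nr6a1-/- cells its log2 fold change was 0.42 (SE 0.41, FDR 0.52). Without wildtype d4 replicate 2 the wildtype values were 2.23 for Hoxd4, 1.94 for Hoxd8 and 1.12 for Hoxd9, all still called. Hoxd1 was called only in Nr6a1-/- cells (log2 1.94, SE 0.55, FDR 0.0074), and without Nr6a1-/- replicate 1 at d3 or replicate 3 at d4 it was not (FDR 0.053 and 0.074). The difference between genotypes in these changes was called for none of the 7 genes, where 5.72% of all genes were called. There were 0 genes at an unadjusted p of 0.05 and 0 by DESeq2. On the log2 scale it was -0.75 (SE 0.52) for Hoxd9, 0.29 (SE 0.47) for Hoxd4, 1.02 (SE 0.76) for Hoxd8 and 1.19 (SE 0.74) for Hoxd1. Hoxd10 (2.72, SE 1.97) and Hoxd11 (-1.65, SE 1.38) rested on few counts, and Hoxd12 could not be estimated. The share of all genes called was 9.54% without Nr6a1-/- d4 replicate 1 and 3.65% without replicate 3. Of the d4 Nr6a1-/- libraries, 2 carried the sample index of a d3 library, and a part of pooling in these changes was not tested.

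Hoxd3 had no count in any library at d3. At d4 it had 3, 6 and 5 counts in wildtype and 7, 9 and 6 in Nr6a1-/- libraries, and at d4G 5, 11 and 6 and 4, 9 and 7. It stayed low throughout and did not reach the level needed for testing. Against 3 counts over the group at d3, its level at d4 was at least 3.41-fold higher in wildtype and at least 8.21-fold higher in Nr6a1-/- cells. Between genotypes at d4 its ratio of pooled counts was 2.16 (exact 95% interval 1.06 to 4.57), and in the fit without a filter its log2 difference was 1.08 with an FDR of 0.41.

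The comparison of genotypes asks whether loss of Nr6a1 changed the level of these genes at each stage. At d2, d2.5 and d3 edgeR called 0 of 7, where it called 4.07%, 6.45% and 10.8% of all genes. At an unadjusted p of 0.05 there were 0, 1 (Hoxd4) and 0 genes at these stages, and DESeq2 called 0 at each. At d3 the log2 fold changes (Nr6a1-/- over wildtype) were -0.25 (SE 0.41) for Hoxd4, -0.63 (SE 0.40) for Hoxd9, -1.12 (SE 0.61) for Hoxd1 and -1.32 (SE 0.70) for Hoxd8. The library ranges overlapped for each of these 4 genes. Pooled over libraries and scaled for depth, the d3 ratio for Hoxd9 was 0.641 with an exact 95% interval of 0.342 to 1.18. This interval includes 1, so these counts did not settle whether Hoxd9 differed at d3. Without Nr6a1-/- replicate 3, Hoxd8 was called lower (log2 -3.04, FDR 0.049). That replicate held 5 of the 6 Hoxd8 counts of its group.

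At d4, 1 of the 7 genes differed between genotypes. It was Hoxd9, which was lower in Nr6a1-/- cells, as were 9.18% of all genes. The wildtype libraries held 17, 36 and 34 counts (7.41, 9.95 and 10.2 CPM) and the Nr6a1-/- libraries 5, 8 and 11 (2.17, 3.87 and 4.69 CPM). The groups did not overlap. The log2 fold change was -1.38 (SE 0.31, FDR 0.0012), and the ratio of pooled counts was 0.379 (exact 95% interval 0.231 to 0.602). Without wildtype replicate 2, the library with high epiblast markers, it was -1.34 (SE 0.35, FDR 0.0059), and without Nr6a1-/- replicate 1 it was -1.13 (SE 0.33, FDR 0.012). Without Nr6a1-/- replicate 3, 5.84% of all genes were called lower and 6.42% higher. The other testable genes gave small or imprecise differences, with log2 values of 0.04 (SE 0.23) for Hoxd4, 0.07 (SE 0.41) for Hoxd1 and -0.30 (SE 0.32) for Hoxd8. Hoxd10 and Hoxd11 had 0 to 3 counts in every library at d4, and Hoxd12 had none in any of the 6.

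**Figure D2:**
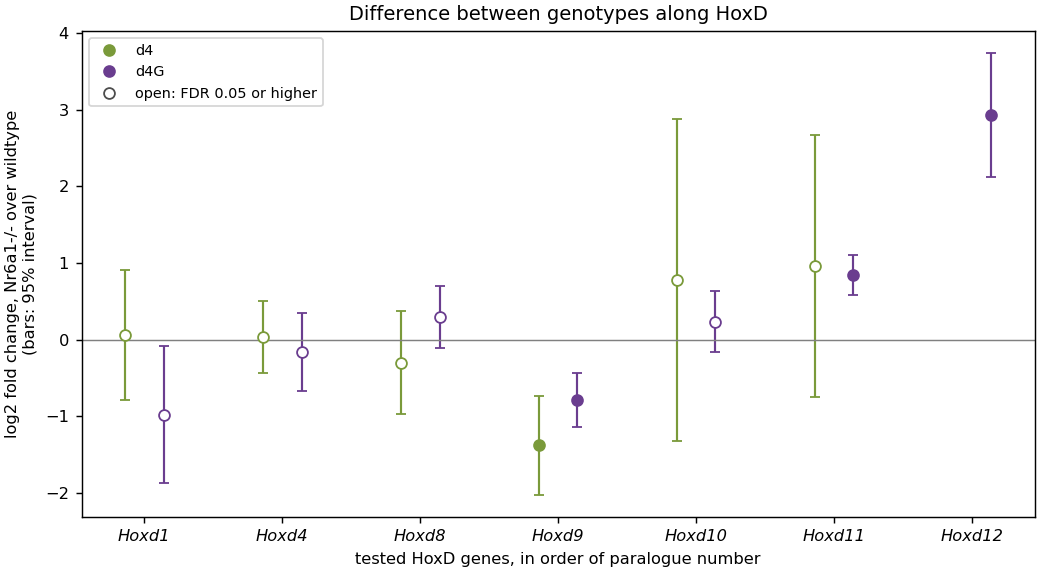
Log2 fold change of Nr6a1-/- over wildtype cells at d4 (green) and d4G (purple) for the 7 tested genes in order of paralogue number, with 95% intervals from the fit; filled points have FDR below 0.05. Hoxd9 lies below 0 at both stages, Hoxd11 and Hoxd12 lie above 0 at d4G, and Hoxd12 has no value at d4, where no library held a count.

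At d4G the cluster differed in both directions, with Hoxd9 lower and the more posterior Hoxd11 and Hoxd12 higher in Nr6a1-/- cells. Thus 2 of 7 genes were higher, where 3.28% of all genes were, and 1 of 7 was lower, where 4.63% were. DESeq2 also called 3 genes. Hoxd9 had 57.7, 62.5 and 54.8 CPM in the wildtype libraries and 32.7, 29.3 and 38.6 CPM in the Nr6a1-/- libraries. The groups were apart, with a log2 fold change of -0.79 (SE 0.17, FDR 0.0013) and a ratio of pooled counts of 0.584 (exact 95% interval 0.491 to 0.693). Hoxd11, which patterns the sacral region, had 118, 137 and 133 CPM in wildtype and 264, 213 and 219 CPM in Nr6a1-/- libraries. Every Nr6a1-/- library was above every wildtype library, with a log2 fold change of 0.84 (SE 0.12, FDR 1.1e-05) and a ratio of 1.80 (1.65 to 1.96). Hoxd12, next along the cluster, had 6, 5 and 3 counts in wildtype (2.79, 2.03 and 1.26 CPM) and 32, 22 and 40 in Nr6a1-/- libraries (15.4, 14.0 and 17.2 CPM). It gave the largest difference of the 7 genes at this stage, log2 2.93 (SE 0.39, FDR 1.3e-05), with a ratio of 7.84 (4.45 to 14.9). Hoxd12 passed the filter through the Nr6a1-/- libraries at d4G alone, so its place among the genes tested was not independent of this difference.

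The genes on either side of Hoxd9 did not pass the test at d4G. Hoxd10 had 52.1, 37.4 and 40.5 CPM in wildtype and 51.5, 49.7 and 51.0 CPM in Nr6a1-/- libraries, which overlapped (log2 0.23, SE 0.19, FDR 0.58, 95% interval -0.16 to 0.63). Hoxd8 had 38.6, 39.4 and 45.1 CPM against 48.1, 49.0 and 54.0 CPM, which did not overlap (log2 0.30, SE 0.19, FDR 0.44, interval -0.10 to 0.70). Hoxd4, at 17.2, 23.1 and 23.6 CPM against 15.4, 18.5 and 23.2 CPM, differed by -0.16 (SE 0.24, FDR 0.80). Hoxd1 had 5.12, 9.75 and 5.90 CPM against 4.33, 3.82 and 2.57 CPM. Its log2 difference of -0.98 (SE 0.43) had an FDR of 0.19 and an unadjusted p below 0.05. Calls of Hoxd9, Hoxd11 and Hoxd12 at d4G were kept under each of the settings tried and with each library left out.

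Beyond Hoxd12, at the posterior end of the cluster, lies Hoxd13, the terminal gene. It had 8.37, 6.09 and 7.59 CPM in wildtype and 67.3, 56.0 and 77.2 CPM in Nr6a1-/- libraries at d4G, a log2 difference of 3.19 (SE 0.24, FDR 4.9e-12).

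**Figure D3:**
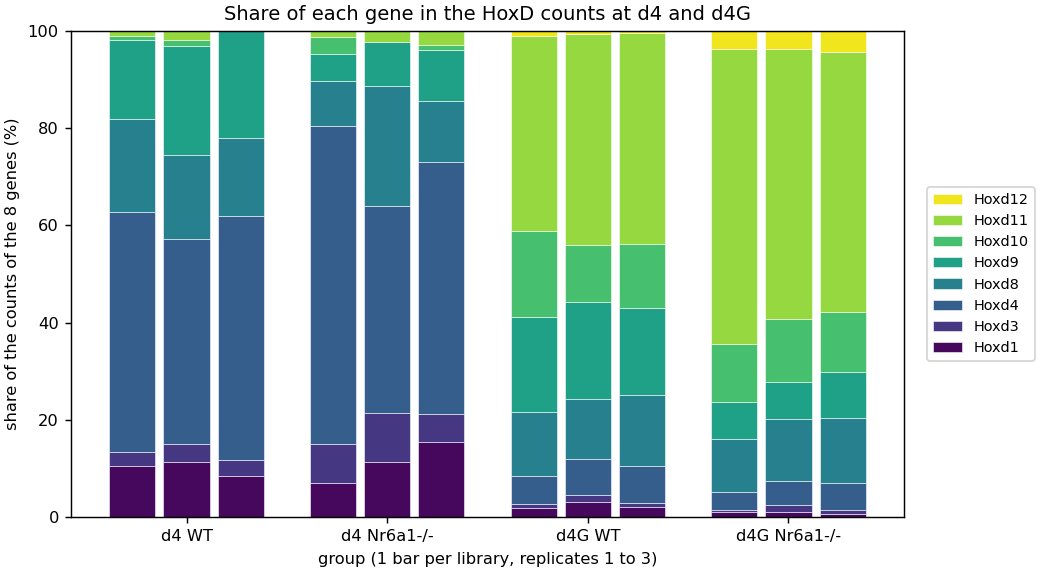
Share of each gene in the summed counts of the 8 HoxD genes, in percent, in each library at d4 and d4G (1 stacked bar per library, replicates 1 to 3 from left to right; each bar sums to 100%). The Hoxd4 band is narrower and the Hoxd11 band broader at d4G than at d4, and the Hoxd9 band is narrower in Nr6a1-/- than in wildtype libraries at both stages.

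The composition of the cluster's transcripts changed with both Gdf11 and genotype. Counts come from 3′ ends and were not divided by length, so shares of 1 gene are compared between groups and not between genes. Shares sum to 100%, so the share of a gene also falls when others rise. The level of Hoxd4 was 21.6 CPM at d4 and 21.3 CPM at d4G in wildtype, and 22.0 and 19.0 CPM in Nr6a1-/- cells. Hoxd4 made up 47.4% ± 4.46 of the 8 genes' counts in wildtype and 53.4% ± 11.5 in Nr6a1-/- cells at d4, and 6.97% ± 0.97 and 4.68% ± 1.07 at d4G (SD, n = 3). Hoxd9 held 20.2% ± 3.45 and 8.44% ± 2.46 at d4, and 19.1% ± 1.07 and 8.22% ± 1.07 at d4G. Within each genotype its mean share with Gdf11 was within 1 SD of its share at d4. Without wildtype replicate 2 and Nr6a1-/- replicate 1, the d4 shares were 49.9% and 47.3% for Hoxd4 and 19.1% and 9.78% for Hoxd9. Hoxd11 held 42.3% ± 1.88 in wildtype and 56.7% ± 3.78 in Nr6a1-/- cells at d4G. Hoxd12 held 0.669% ± 0.270 and 3.81% ± 0.347. Hoxd10 (14.3% ± 3.09 and 12.5% ± 0.546) and Hoxd8 (13.5% ± 1.15 and 12.4% ± 1.12) had overlapping shares.

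The response to Gdf11, d4G against d4, asks which genes the factor moved in its 24 h. The same 5 of 7 genes rose in both genotypes: Hoxd8, Hoxd9, Hoxd10, Hoxd11 and Hoxd12. Of all genes, 14.3% rose in wildtype and 8.45% in Nr6a1-/- cells. Hoxd10, Hoxd11 and Hoxd12 passed the filter through d4G libraries alone, so their place among the genes tested was not independent of this rise. Hoxd1 and Hoxd4 were not called in either genotype. The called genes were thus the 5 at the posterior side, and the log2 values of Hoxd10 and Hoxd11 were higher than those of Hoxd8 and Hoxd9, with intervals that did not meet.

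**Figure D4:**
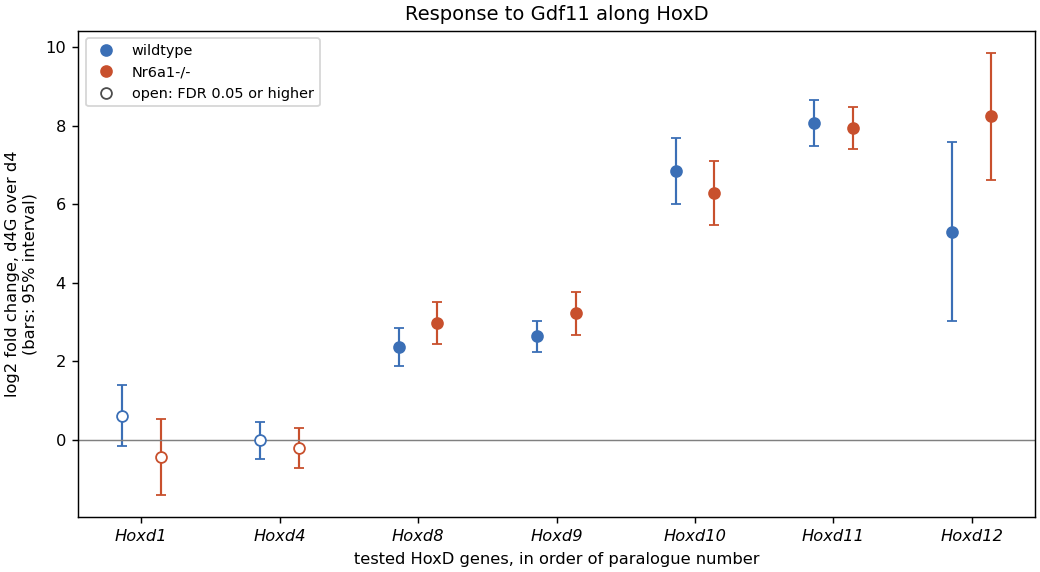
Log2 fold change of d4G over d4 in wildtype (blue) and Nr6a1-/- (orange) cells for the 7 tested genes in order of paralogue number, with 95% intervals from the fit; filled points have FDR below 0.05. The intervals of Hoxd1 and Hoxd4 span 0 and the other 5 genes lie above 2; the values of Hoxd12 start from 0 counts at d4 and depend on the fit's prior count.

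Hoxd8 went from 20, 28 and 25 counts at d4 to 83, 97 and 107 at d4G in wildtype, and from 8, 22 and 13 to 100, 77 and 126 in Nr6a1-/- libraries. The log2 fold changes were 2.37 (SE 0.23) and 2.97 (SE 0.26). Hoxd9 went from 17, 36 and 34 to 124, 154 and 130 counts in wildtype (log2 2.63, SE 0.19) and from 5, 8 and 11 to 68, 46 and 90 in Nr6a1-/- libraries (3.23, SE 0.26). No library at d4 reached the d4G range for either gene. Hoxd10 had 1, 2 and 0 counts in wildtype and 3, 0 and 1 in Nr6a1-/- libraries at d4, and 112, 92 and 96 and 107, 78 and 119 at d4G. The ratio of pooled counts was 132 (exact 95% interval 44.8 to 645) in wildtype and 85.4 (33.0 to 315) in Nr6a1-/- cells. Hoxd11 went from 1, 3 and 0 to 253, 337 and 315 counts in wildtype, a ratio of 299 (116 to 1101), and from 1, 2 and 3 to 548, 334 and 510 in Nr6a1-/- libraries, a ratio of 261 (119 to 712). Both genes were close to undetected without Gdf11 in each genotype. Hoxd12 had no count at d4, and at d4G it was at least 6.17-fold higher in wildtype and at least 35.2-fold higher in Nr6a1-/- cells, against 3 counts over the group. These intervals and bounds cover counting error only.

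Of the anterior genes, Hoxd1 and Hoxd4 were not called and Hoxd3 was not tested. In wildtype cells Hoxd3 had 1.31 to 1.66 CPM at d4 and 2.33 to 4.47 CPM at d4G, which did not overlap. The fit without a filter gave a log2 fold change of 1.02 (SE 0.59, FDR 0.39). In Nr6a1-/- cells its ranges overlapped, and that fit gave 0.02 (SE 0.56). Hoxd4 differed by -0.01 (SE 0.23, 95% interval -0.48 to 0.47) in wildtype and by -0.21 (SE 0.24, interval -0.72 to 0.30) in Nr6a1-/- cells. Hoxd1 differed by 0.61 (SE 0.37, interval -0.17 to 1.39) and by -0.43 (SE 0.46, interval -1.39 to 0.54). Every wildtype library at d4G was above every one at d4 for Hoxd1 (5.12, 9.75 and 5.90 against 4.80, 4.97 and 3.90 CPM), and in Nr6a1-/- cells the ranges overlapped. Without wildtype d4 replicate 2 the wildtype log2 fold changes were 2.34 for Hoxd8, 2.68 for Hoxd9, 7.54 for Hoxd10 and 9.12 for Hoxd11, against 6.84 and 8.06 for the last 2 genes with it. That replicate held 2 of the 3 Hoxd10 counts and 3 of the 4 Hoxd11 counts of its group. In Nr6a1-/- cells the value of Hoxd10 was 6.30, and 7.51 without d4 replicate 1, which held 3 of the 4 counts. Of the 6 d4G libraries, 4 carried the same sample index as a d4 library. The labels give no pools, and a part of pooling in the response was not tested.

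The difference of the Gdf11 response between genotypes was tested by an interaction and called for none of the 7 genes, where 2.66% of all genes were called (6.78% without Nr6a1-/- d4 replicate 1 and 1.69% without replicate 3). There were 0 genes at an unadjusted p of 0.05 and 0 by DESeq2. The log2 difference was 0.60 (SE 0.38, 95% interval -0.19 to 1.38) for Hoxd8 and 0.59 (SE 0.36, interval -0.15 to 1.34) for Hoxd9. It was -1.04 (SE 0.59, interval -2.28 to 0.20) for Hoxd1 and -0.20 (SE 0.33, interval -0.90 to 0.50) for Hoxd4. It was -0.55 (SE 0.98, interval -2.59 to 1.49) for Hoxd10 and -0.12 for Hoxd11. Hoxd11 held 4 and 6 pooled counts at d4, too few for an SE taken from so small a difference, so none is given. Without wildtype d4 replicate 2 the values were -1.25 (SE 1.28) for Hoxd10 and -1.18 (SE 1.06) for Hoxd11. The difference for Hoxd12 could not be estimated because both genotypes had 0 counts at d4.

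Paralogues of these genes in the other clusters, 17 genes of which 15 were tested, were set beside them. At d4, 4 were lower and 2 higher in Nr6a1-/- cells, with a median log2 fold change of 0.15 against 0.02 over all genes, of which 9.18% were lower and 9.7% higher. Without wildtype replicate 2, 4 were lower and 1 higher. All of group 9 was lower there. Hoxa9 fell by 2.06, from 39.3 ± 8.06 to 9.16 ± 1.46 CPM, and Hoxc9 fell by 1.78, from 59.9 ± 12.7 to 17.1 ± 2.15 CPM. Hoxb9, named here after its value was seen, fell by 1.39. At d4G 3 were higher and 3 lower, with a median of -0.02 against 0.01 over all genes, of which 3.28% were higher and 4.63% lower. Hoxc8, Hoxc10 and Hoxc9 were lower, by 1.75, 1.60 and 1.59 on the log2 scale. Hoxc11, also named after its value was seen, was higher, with 90.5 ± 2.57 against 39.9 ± 2.45 CPM (log2 1.18). With Gdf11, 8 paralogues rose and 1 fell in wildtype, and 7 rose and 1 fell in Nr6a1-/- cells, where 14.3% and 8.45% of all genes rose and 14.5% and 9.59% fell. The 3 largest rises in wildtype were Hoxc11 (7.96, or 9.56 without d4 replicate 2), Hoxc10 (6.99) and Hoxa11 (6.10, or 5.49). Of the paralogues, 2 differed in the response itself (2.66% of all genes did): Hoxa9 (log2 difference 1.97), which rose more in Nr6a1-/- cells, and Hoxb9 (1.15), which fell in wildtype cells and was not called in Nr6a1-/- cells. Without Nr6a1-/- d4 replicate 1, 4 differed.

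Neighbours of the cluster, 10 tested of 14 listed, had 1 call between genotypes at d4 and 1 at d4G, both higher in Nr6a1-/- cells, as were 9.7% and 3.28% of all genes. At d4 the called gene was Mtx2, a mitochondrial gene on the anterior side (log2 0.45), and at d4G it was Hoxd13. Hoxd3os1, an antisense transcript across Hoxd8 and the start of Hoxd3, rose with Gdf11 from 9.98 ± 2.67 to 40.5 ± 0.375 CPM in wildtype (log2 2.04) and from 9.93 ± 1.01 to 30.7 ± 2.90 CPM in Nr6a1-/- cells (1.62). Since use of strand is not stated, counts from bases that it shares with other genes cannot be told apart. No gene on the opposite strand shared any of the last 500 exonic bases of a member. Haglr, annotated as an antisense transcript from the promoter of Hoxd1, was at 2.52 ± 2.04 CPM in wildtype d2.5 cells (1, 5 and 9 counts) and at 1.80 ± 1.24 CPM in Nr6a1-/- cells (4, 9 and 2 counts).

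The Pbx, Meis and Pknox cofactors, which bind DNA together with Hox proteins, were tested for all 9 genes. At d4, 7 were higher and 1 lower in Nr6a1-/- cells, with a median log2 difference of 0.64 against 0.02 over all genes, of which 9.7% were higher and 9.18% lower. Without wildtype replicate 2, or without Nr6a1-/- replicate 1, 6 were higher and 1 lower. The higher genes were led by Pbx3 (1.32, from 15.1 ± 2.20 to 38.4 ± 3.34 CPM) and Meis2 (0.94). The lower gene was Pbx4 (-0.95). At d4G 2 were higher, Pbx3 (0.77) and Meis2 (0.67). Among the caudal inputs and Gdf11 signalling genes, 12 tested, 4 were higher and 3 lower at d4 and 1 was higher and 3 lower at d4G, where 3.28% of all genes were higher and 4.63% lower. Cdx4, a caudal factor that acts upstream of trunk Hox genes, was lower in Nr6a1-/- cells at d4 (51.3 ± 4.07 against 129 ± 1.59 CPM, log2 -1.33) and at d4G (53.2 ± 6.04 against 175 ± 12.1 CPM, -1.71). At d4, Smad7 was lower (-2.11) and the signal transducer Smad3 higher (1.14). Cdx2 (-0.96) and T (-0.53) were also lower at d4G. With Gdf11, the feedback inhibitors Skil and Smad7 rose in both genotypes, by 2.41 and 1.60 in wildtype and by 3.38 and 3.84 in Nr6a1-/- cells, and Cdx2 fell by 1.10 and 1.97.

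Markers of cell types also moved between genotypes. The 9 NMP markers summed to 676 to 754 CPM in wildtype and 839 to 981 CPM in Nr6a1-/- libraries at d4, and to 708 to 717 and 488 to 544 CPM at d4G, with none at 0. In Nr6a1-/- cells at d4, 4 of them were called higher and 3 lower, where 9.7% and 9.18% of all genes were. At d4G 2 were higher and 6 lower (3.28% and 4.63% of all genes), with a median log2 difference of -0.53. Among the lower were Cdx4 (-1.71), Sox2 (-1.52) and Fgf8 (-1.26). In the Gdf11 interaction 6 were called lower, where 2.66% of all genes were called in either direction. In these bulk libraries, fewer cells that express a gene and less RNA per cell cannot be told apart. The 5 paraxial mesoderm markers summed to 105 to 123 CPM in wildtype and 406 to 442 CPM in Nr6a1-/- libraries at d4, and to 78.6 to 94.6 and 155 to 174 CPM at d4G. All 4 tested at d4 and 2 of 4 at d4G were called higher, as were 9.7% and 3.28% of all genes. None of the 5 was at 0 in these groups. Without wildtype d4 replicate 2, 3 of 4 were called at d4. The 4 endoderm markers summed to 36.7 to 44.4 and 1.70 to 7.26 CPM at d4 and to 45.5 to 54.0 and 2.89 to 5.09 CPM at d4G, with Cer1 at 0 in all 4 groups. The 4 neural progenitor markers summed to 16.8 to 21.8 and 2.17 to 3.87 CPM at d4, with Olig2 at 0 in Nr6a1-/- cells, and to 5.48 to 12.6 and 2.89 to 3.86 CPM at d4G, with Sox1 at 0 in Nr6a1-/- cells. The 8 fibroblast markers summed to 52.6 to 62.1 and 52.8 to 61.8 CPM at d4G, with Lum at 0 in both and 1 of 5 tested, Thy1, called lower. The part of these cell types in the differences of Hoxd9, Hoxd11 and Hoxd12 was not tested.

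Over the 10 group means of log2 CPM, some tested members next to each other had very similar patterns, but not all pairs followed their distance. Pearson's r was 0.997 for Hoxd10 with Hoxd11, 0.979 for Hoxd1 with Hoxd4, 0.958 for Hoxd8 with Hoxd9 and 0.436 for Hoxd1 with Hoxd12. Of the other neighbours, Hoxd11 with Hoxd12 had 0.923, Hoxd4 with Hoxd8 0.864 and Hoxd9 with Hoxd10 0.862. The last 2 values were below those of Hoxd8 with Hoxd10 (0.902) and Hoxd1 with Hoxd9 (0.901), which are not neighbours. Outside the Hox clusters, the 3 genes of 9686 most like each member were as follows, with the same measure over the same 10 groups. For Hoxd1 they were Rala (0.981), Akt1 and Kif26b, and for Hoxd4 Kif26b (0.991), H2afy2 and Akt1. For Hoxd8 they were Maged1 (0.984), Sdk2 and Lsp1, and for Hoxd9 Adamtsl2 (0.981), Dact1 and Tril. Tril had 25.2 and 4.21 CPM at d4 and 104 and 29.2 CPM at d4G in wildtype and Nr6a1-/- cells. At d4G Adamtsl2 was at 25.9 and 12.0 CPM and Dact1 at 43.5 and 44.6 CPM in the same order. Since these genes were picked by likeness over the same group means, a shared pattern follows from the choice. Hoxd10 was most like Capn15 (0.985), Spsb1 and Ski, Hoxd11 most like Spsb1 (0.986), Capn15 and Elk3, and Hoxd12 most like Slc46a1 (0.946), Dicer1 and Zfp592. Spsb1 went from 1.88 to 77.9 CPM in wildtype and from 2.11 to 80.6 CPM in Nr6a1-/- cells with Gdf11. The points of these correlations share libraries and stages, so they are a description.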

How the data were processed

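RNA was measured in 30 libraries, 3 in each of 10 groups given by the sample labels. Libraries were made from poly(A) ends, with a sample index and a molecular identifier added at priming. The deposited table holds counts per gene and library, which the authors made from reads aligned with STAR; the submitters' processing notes name the mouse build mm10. Annotation, counter, use of strand and collapsing of identifiers are not given in the sources used here. The authors also deposited tables of their own genotype tests at each stage, with fold changes and p-values, which were not used.

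The filter asked for above 10 counts and above 2 CPM (counts scaled for library size) in 2 or more libraries of a group. It left 12149 of 54134 rows, and the lowest share of counts it kept in a library was 99.2%. TMM-scaled counts entered a single model of the 10 groups (edgeR 4.0.16 under R 4.3.3), with 20 residual degrees of freedom. All 15 comparisons (genotypes at each stage, successive stages, d4G against d4, and 2 interactions) used the quasi-likelihood test, two-sided, with Benjamini-Hochberg adjustment over all genes tested. FDR in the text is this adjusted p, and genes under 0.05 were called. CPM are TMM-scaled, without a prior count. Standard errors are the log2 fold change over the square root of F, and can be too small where counts are few. The labels do not say that replicates were separate cultures, so p-values measure the spread between these samples, which may be technical. Replicate pairs differed by a chi-square of 1.49 to 7.59 per gene, and none held the same counts. The fit was checked on simulated counts.

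The members, lists and comparisons were chosen with earlier results of these data known. The text names the 8 members and at most the 3 largest called genes of each other list. Exceptions are marked, and a gene that this rule would name is not reported here. Coordinates are from GENCODE M21 (GRCm38), counted from 1, and promoters from RefSeq. Exact 95% intervals and limits of 3 counts cover counting error only. Replicate numbers did not pair samples. In 13 comparisons the correlation of same-numbered libraries' deviations ran from -0.11 to 0.16, and in 0 were all pairs above 0.1. Alternatives were RLE factors, no factors, filterByExpr, no filter, a replicate block, only the libraries compared, DESeq2 1.42.0, counts thinned to 1570714 per library, other onset thresholds and each library left out. Counts for the other lists without a d4 library that stood apart were added after the data were seen. Protein sequences were not used here.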

Additional observations from a re-analysis of the deposited data

How the results depend on the processing

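The genotype calls at d4 (Hoxd9) and at d4G (Hoxd9, Hoxd11 and Hoxd12) were made under all alternatives that tested them. With a replicate block 0, 0, 0, 1 and 3 genes were called between genotypes at d2, d2.5, d3, d4 and d4G, and 5 and 5 for Gdf11, and no count of calls moved by over 1.5 times. Replicate numbers did not pair samples, although in 2 of 13 comparisons every sample correlated best with its own number. When the filter used only the libraries compared, no member passed it for d3 against d2.5, which gave 0 calls in both genotypes, and Hoxd12 was not tested for Gdf11 in wildtype cells, which left 4. The fit without a filter also called Hoxd3 for d4 against d3, with a log2 fold change of 4.93 in wildtype and 6.01 in Nr6a1-/- cells. At an onset threshold of 5 CPM, 1 gene in wildtype and 0 in Nr6a1-/- cells were on at d3, and 2 in Nr6a1-/- cells at d4. With 1 library left out, genotype calls at d3 ran from 0 to 1. Values that were not called changed sign in a few fits, and the cause was not tested. Hoxd4 gave 0.086 without normalization factors and 0.048 with thinned counts for d4G against d4 in wildtype cells (-0.11 to 0.12 with 1 library left out), and Hoxd11 gave 0.51 with thinned counts for the Gdf11 interaction (-1.18 to 0.48). Leaving out 1 library gave -0.63 to 0.35 for Hoxd4 between genotypes at d3, -0.078 to 0.14 for Hoxd4 and -0.31 to 0.35 for Hoxd1 at d4, -1.25 to 0.67 for the Gdf11 interaction of Hoxd10, and -0.31 to 0.66 for the d3 to d4 interaction of Hoxd4. Among called values, Hoxd1 for d3 against d2.5 in wildtype cells had FDR 0.061, 0.104, 0.131 and 0.064 without d2.5 replicate 1, d2.5 replicate 3, d3 replicate 1 and d3 replicate 3. Where a library held the few early counts, log2 values rose without it. For d3 against d2.5, Hoxd9 reached 6.35 and Hoxd4 4.08 without wildtype d2.5 replicate 2, and Hoxd9 5.70 without Nr6a1-/- d2.5 replicate 3, and Hoxd8 for d4 against d3 in Nr6a1-/- cells reached 4.63 without d3 replicate 3. In an arm left with few counts, a count of 0 allows up to 1.91 CPM in the smallest library. A 0 in a single library therefore does not show that a gene was off.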

Other observations

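Hotair, a non-coding RNA transcribed from within the HoxC cluster, had the pattern most like that of Hoxd12 among tested transcripts inside the Hox clusters that are not Hox genes themselves, with a Pearson r of 0.995 over the 10 group means. It was chosen after its values were seen, so the values are a description. No library at d4 held a count of Hotair. At d4G the wildtype libraries held 7, 10 and 9 counts (3.26, 4.06 and 3.79 CPM) and the Nr6a1-/- libraries 42, 47 and 48 (20.2, 29.9 and 20.6 CPM). Every Nr6a1-/- library was above every wildtype library, and the log2 difference was 2.63 (SE 0.33). Since Hotair was chosen for its likeness to Hoxd12, which was itself higher in these libraries, this difference follows from the choice. Hotair also passed the filter through the Nr6a1-/- libraries at d4G alone.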
